A study of Mus musculus with 12 samples.

Results

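Carboxylesterases are serine hydrolases that cleave ester bonds in drugs, in other foreign compounds and in lipids. In liver they sit mostly inside the endoplasmic reticulum, where some of them release fatty acids from stored triglyceride that is then packed into very low density lipoprotein (VLDL). The Ces1 genes are abundant in adult mouse liver, and the Ces2 genes are best known from intestine and liver. The levels of 6 of them, Ces2a, Ces2c, Ces2e, Ces1d, Ces1f and Ces1g, were followed in BMEL cells through their probe sets on Affymetrix whole-genome mouse arrays. All probe sets whose annotation carried one of these symbols were taken. That gave 7 probe sets for 5 of the 6 genes, among 45037 probe sets and 18193 genes in the series, and Ces2c had no probe set in the annotation used here. The 6 genes were chosen by their response to culture in these same arrays, so their differences between cultures are described without a test.

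BMEL (bipotential mouse embryonic liver) lines are epithelial lines isolated from fetal liver that can take on features of hepatocytes or of bile duct cells. The groups were 9A1 and 14B3 cells in basal culture, as aggregates for 1 day and as aggregates for 5 days, with 2 biological replicates each and 12 arrays in all. Both lines came from wild-type embryos of a cross between CBA/J and C57Bl/6J mice and were isolated independently. Each is a single isolate, so a difference between the lines is a difference between these isolates. Levels are log2 values summarised by the authors with RMA, and differences are in log2 units ± the standard error (SE) of a limma fit to all arrays. A probe set entered the fit if its level reached 5 on at least 2 arrays, and 34866 did so.

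Array medians were 6.09 to 6.24, and precision is limited by having 2 arrays in a group. Basal 9A1 replicate 1 went against its label. Principal component 1 (53.6% of the variance) placed it at -12.9, while the remaining basal arrays had scores of 90.8 to 103 and the 5 day arrays of -110 to -80.7. The mean of 8 hepatocyte markers was 10.2 on this array. The remaining basal arrays had means of 6.04 to 6.59, the 1 day arrays 8.06 to 8.37 and the 5 day arrays 10.3 to 12.0. Of the 15 tested hepatocyte probe sets, 12 rose at 5 days and 0 fell, where 13.7% and 15.4% of all probe sets did. The mean of 6 markers of absorptive gut, a tissue that also uses Ces2 genes, behaved alike. It reached 10.5 on that array, compared with 7.85 to 8.40 on the remaining basal ones, 9.42 to 9.98 at 1 day and 11.6 to 12.7 at 5 days. All 7 gut probe sets rose at 5 days, against the same 13.7% of all. The epithelial keratins and cadherin averaged 12.9 to 13.3 on all arrays, while the 3 blood probe sets annotated to Ptprc or Hba-a1 alone stayed under 5 throughout. The other 4 blood probe sets, each annotated to several haemoglobin genes, read 5.01 to 8.85, and none of them was called at 1 day or 5 days. In such bulk RNA a larger share of expressing cells and more RNA per cell cannot be told apart. The values of 9A1 replicate 2 at 1 day were the least spread (SD 2.12, elsewhere 2.25 to 2.33), and this array correlated at 0.949 with its replicate.

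All 20 carboxylesterase genes of the RefSeq annotation lie on mouse chromosome 8 (build GRCm38) in 2 clusters separated by 11198124 bases. Ces1d (chr8:93166072-93197804), Ces1f (chr8:93256236-93279766) and Ces1g (chr8:93302369-93337209) belong to the first. Ces2a (chr8:104734003-104741634), Ces2c (chr8:104847068-104854483) and Ces2e (chr8:104926260-104934672) belong to the second. Promoters are shown for both measured Ces2 members and for their neighbour Ces2g, because the 3 genes lie in the same cluster and did not move alike at 5 days. The sequences are the 250 bases before the start used in the RefSeq promoter table, on the plus strand of GRCm38.p6, at chr8:104733753-104734002 for Ces2a, chr8:104926010-104926259 for Ces2e and chr8:104961468-104961717 for Ces2g. That start is the annotated beginning of the gene for Ces2a and Ces2e, but lies 122 bases inside the annotated gene for Ces2g, so the Ces2g window is not placed like the others. Capitals mark the runs of at least 12 bases that Ces2a and Ces2e have in common.
Ces2a: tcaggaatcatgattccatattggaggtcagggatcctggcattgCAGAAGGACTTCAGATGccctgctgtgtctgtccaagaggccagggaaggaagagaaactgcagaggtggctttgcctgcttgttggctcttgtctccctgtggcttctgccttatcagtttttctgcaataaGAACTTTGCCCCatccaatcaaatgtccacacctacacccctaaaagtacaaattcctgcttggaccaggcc
Ces2e: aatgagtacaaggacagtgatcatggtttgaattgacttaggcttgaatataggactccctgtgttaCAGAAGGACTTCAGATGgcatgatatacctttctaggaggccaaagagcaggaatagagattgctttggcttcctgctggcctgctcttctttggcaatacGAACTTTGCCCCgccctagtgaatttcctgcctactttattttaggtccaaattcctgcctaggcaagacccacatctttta
Ces2g: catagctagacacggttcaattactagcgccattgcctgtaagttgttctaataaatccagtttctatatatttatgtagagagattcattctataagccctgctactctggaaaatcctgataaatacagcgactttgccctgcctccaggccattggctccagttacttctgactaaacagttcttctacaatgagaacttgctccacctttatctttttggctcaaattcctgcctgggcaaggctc
The longer run, of 17 bases, starts 205 bases before the start of Ces2a and 183 before that of Ces2e. It was found, on either strand, in 2 of 32851 RefSeq promoter windows of this length, or 0.00609%. These 2 are the Ces2a and Ces2e windows from which the run was taken. The shorter run, of 12 bases, starts 72 and 82 bases before the starts of Ces2a and Ces2e. It was found in 3 windows (0.00913%), again with those of Ces2a and Ces2e among them. Neither is in the Ces2g window, but runs that Ces2g shares with Ces2a or Ces2e were not searched for or marked. The printed Ces2e and Ces2g windows have caaattcctgcct in common, which is longer than the shorter marked run. Shared runs are thus not particular to Ces2a and Ces2e. Over the whole window Ces2a and Ces2e were 53.2% identical in a global alignment, and Ces2a and Ces2c 64.6%. The Ces2g window was nearly as close to both, at 49.5% with Ces2a and 51.1% with Ces2e. AGGTCA, the core repeat bound by nuclear receptors, was found in the Ces2a, Ces2h and Ces4a windows and in 14.0% of all windows. TATAAA was found in those of Ces1g, Ces1h and Ces3b and in 12.4% of all. A letter match is no evidence that a factor binds there.

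Ces2a, which hydrolyses acylglycerols in mouse liver and gut, had the largest difference of the members. Its probe set 1449375_at stood at 11.18 and 5.46 in basal 9A1, 8.66 and 10.01 in 9A1 at 1 day, and 13.91 and 13.92 in 9A1 at 5 days. In 14B3 the levels were 5.02 and 5.88 in basal culture, 10.15 and 9.97 at 1 day, and 13.79 and 13.90 at 5 days. The 3 cultures were thus fully ordered in 14B3, while in 9A1 basal replicate 1 lay above both 1 day arrays. At 5 days the level was higher than in basal culture by 7.00 ± 0.98, a 128-fold difference, and higher than at 1 day by 4.18 ± 0.98. At 1 day it was higher than in basal culture by 2.81 ± 0.98. Basal 9A1 replicate 1 set the size of both differences from basal culture. Without it Ces2a was higher than in basal culture by 8.43 ± 0.32 at 5 days and by 4.24 ± 0.32 at 1 day, and without basal 9A1 replicate 2 by 5.57 and 1.38. The highest level of any probe set was 14.4 to 14.7 on each array, so the 5 day levels lie near the top of the scale, where RMA values are compressed.

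Ces2e, a close relative expressed in gut and liver, was detected in basal culture and separated the lines as well as the cultures. The levels of 1427137_at were 8.78 and 8.26 in basal 9A1, 7.76 and 7.70 at 1 day, and 11.76 and 12.16 at 5 days. In 14B3 they were 7.08 and 7.07, then 6.83 and 6.41, then 11.04 and 10.39. In both lines the 1 day arrays were lowest and the 5 day arrays highest, with no overlap within a line. The difference between 5 days and basal culture was 3.54 ± 0.20, or 11.6-fold, and that between 5 days and 1 day was 4.16 ± 0.20. At 1 day Ces2e was lower than in basal culture by 0.62 ± 0.20, where Ces2a was higher. Without basal 9A1 replicate 1 the differences from basal culture were 3.67 ± 0.21 at 5 days and -0.49 ± 0.21 at 1 day.

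**Figure D1:**
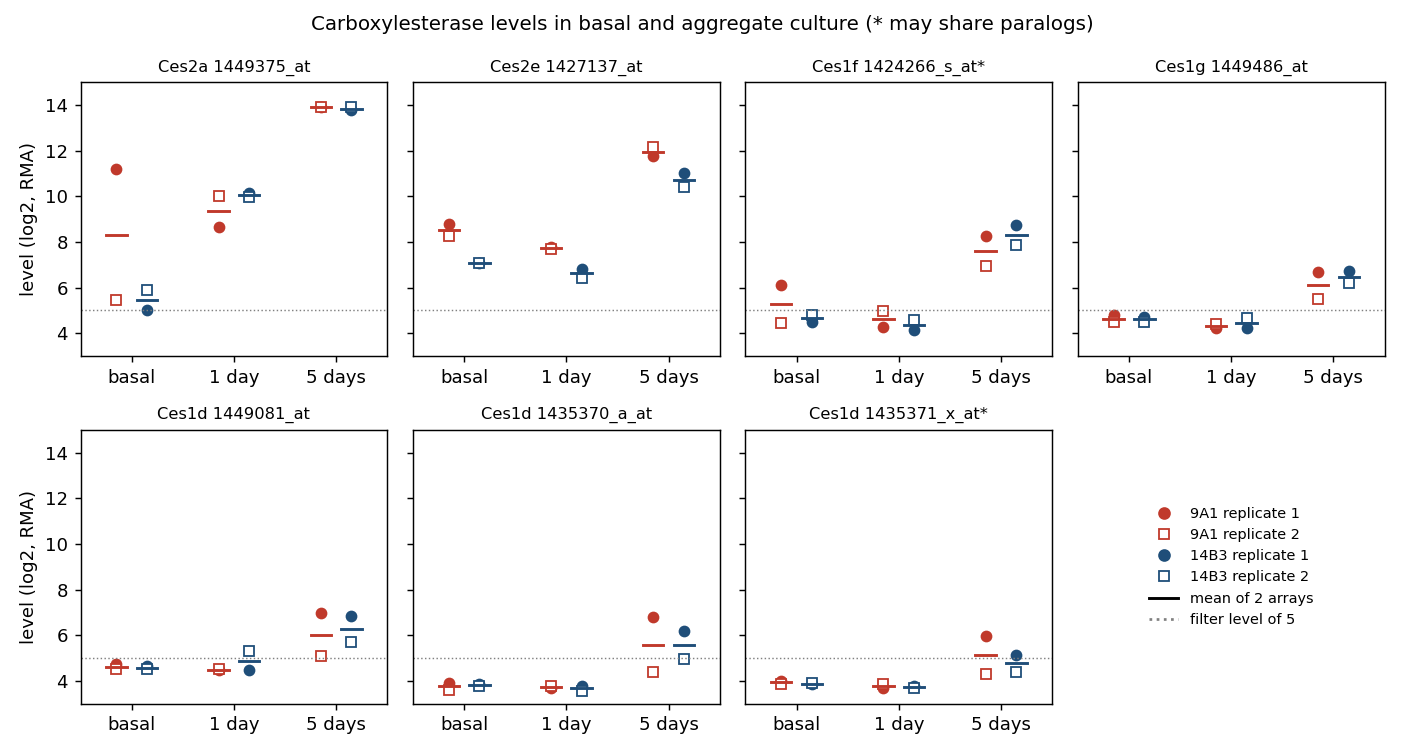
Level (log2, RMA) of each of the 7 probe sets of the 5 measured genes on every array, by culture and line; horizontal bars are the means of 2 arrays and the dotted line is the filter level of 5. Ces2a was above 13.7 on all 5 day arrays, and the Ces1 probe sets, at or under 5 on most basal and 1 day arrays, were higher at 5 days with wide gaps between replicates.

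The Ces1 members were low until 5 days. Ces1f, a microsomal lipase that in mouse liver takes part in VLDL assembly, is measured by 1424266_s_at. That suffix marks probes that can match transcripts of several genes, so its signal may include a relative. It read 8.26 and 6.95 in 9A1 at 5 days, against 6.12 and 4.43 in basal 9A1, and 8.73 and 7.87 in 14B3 at 5 days, against 4.51 and 4.78 in basal 14B3. All 5 day arrays lay above the others, and the 1 day arrays, at 4.15 to 4.95, were all under 5. The difference from basal culture at 5 days was 2.99 ± 0.41, and 3.41 ± 0.35 without basal 9A1 replicate 1, where Ces1f was the only Ces1 member above 5 in basal culture.

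Ces1d, known in mouse as triglyceride hydrolase and a supplier of fatty acids for VLDL, has 3 probe sets. At 5 days 1449081_at read 6.97 and 5.09 in 9A1 and 6.84 and 5.71 in 14B3, against 4.50 to 4.72 in basal culture and 4.46 to 5.29 at 1 day. The 5 day range overlapped that of 1 day through a single array each, 9A1 replicate 2 at 5 days and 14B3 replicate 2 at 1 day. On 1435370_a_at the levels at 5 days were 6.78 and 4.37 in 9A1 and 6.18 and 4.94 in 14B3, and 3.55 to 3.89 on the earlier arrays. On 1435371_x_at, whose suffix warns of cross-hybridisation, they were 5.97 and 4.29 in 9A1 and 5.14 and 4.40 in 14B3, and 3.67 to 4.01 earlier. At 1 day the 3 probe sets, as named here, differed from basal culture by 0.09, -0.08 and -0.16. At 5 days all were higher than in basal culture but not alike in size, with differences of 1.56 ± 0.40, 1.78 ± 0.46 and 1.04 ± 0.32. The 5 day array of 9A1 replicate 1 weighed on all 3, since without it they were 1.09, 1.18 and 0.62. Only replicate 1 of each line at 5 days reached 5 on 1435370_a_at and 1435371_x_at. Without either of these arrays both probe sets no longer reached the filter.

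Ces1g, a liver lipase whose loss in mice alters lipid synthesis, read 6.70 and 5.51 in 9A1 and 6.73 and 6.18 in 14B3 at 5 days on 1449486_at. In basal culture it read 4.47 to 4.78 and at 1 day 4.20 to 4.68, so every 5 day array was higher. The difference from basal culture was 1.66 ± 0.25. All basal levels of Ces1d and Ces1g, and those of Ces1f on 3 of 4 arrays, lie under 5, at background, so these differences may understate the true ones.

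At 5 days the fit called all 7 probe sets higher than in basal culture, where 13.7% of all probe sets tested were called higher, and all 7 higher than at 1 day, against 9.91%. These counts repeat the choice of the genes and carry no further weight, also because 3 of the probe sets (Ces1g and 2 of Ces1d) passed the filter through 5 day arrays alone. In 9A1 alone 4 of 7 were called higher at 5 days than in basal culture (4.7% of all), and in 14B3 alone 4 of 7 (9.65%). Their median difference at 5 days was 1.78, against 0.01 for all probe sets tested. At 1 day limma called 0 of 7 in either direction against basal culture, where 11.5% of all were called (4.19% higher, 7.34% lower), and 2 had an unadjusted p under 0.05. The median was -0.16, and -0.05 once basal 9A1 replicate 1 was left out. In 6 of 7 probe sets all 5 day arrays lay above all earlier ones, as in 8.93% of those tested. The comparisons with basal culture use the same basal arrays.

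Replicates at 5 days were unequal in the Ces1 members. Replicate 1 lay above replicate 2 in both lines in all 5 Ces1 probe sets, an order that 23.2% of all probe sets tested showed. The gap was 1.19 to 2.41 in 9A1 and 0.55 to 1.24 in 14B3. For Ces2a the gaps were -0.01 and -0.11, and for Ces2e -0.41 in 9A1 and 0.65 in 14B3. The hepatocyte marker mean had the same order at 5 days, 12.0 and 10.9 in 9A1 and 10.8 and 10.3 in 14B3 for replicates 1 and 2, and its part in the Ces1 values was not tested.

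The lines were compared next. The genes were chosen by their response to culture, but with earlier results of these data known. Whether the line contrast had a part in that choice was not tested, so its p values describe these arrays only. Ces2e was higher in 9A1 than in 14B3 by 1.44 ± 0.29 among basal cells, 1.11 ± 0.29 after 1 day of aggregation and 1.25 ± 0.29 after 5 days, with both 9A1 arrays above both 14B3 arrays each time. Such an order in all 3 cultures was seen in 0.906% of probe sets tested. No single culture passed the test (limma, adjusted p = 0.379, 0.823 and 0.292). Over all cultures, a contrast added after the data had been seen, the difference was 1.27 ± 0.17 with an adjusted p of 0.033 in limma, higher in 9A1 in 3 of 3 cultures. Of all probe sets 0.166% were called in that contrast. The call was lost with array weights (adjusted p = 0.117), with the replicate number as a block (adjusted p = 0.11) and when any of 8 arrays was left out, with differences of 1.16 to 1.38 and adjusted p from 0.00476 to 0.161 over the arrays left out in turn. The arrays whose removal ended it were both basal 14B3 arrays, both 1 day 14B3 arrays and all 5 day arrays.

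The other 6 probe sets were not called between the lines. Over all cultures their 95% intervals were -0.70 to 0.83 for Ces1f, -0.63 to 0.31 for Ces1g and -0.93 to 0.54 for Ces1d on 1449081_at. For Ces2a the interval was -1.07 to 2.54, so this comparison could miss a large difference. Its basal difference of 2.87 fell to 0.01 ± 0.49 without basal 9A1 replicate 1. Within single cultures limma called 0 of 7 members each time, with 1 each at an unadjusted p under 0.05, and 0.0201%, 0.00574% and 0.198% of all probe sets were called in basal, 1 day and 5 day cultures. The response to culture differed between the lines in 0 of 7 members at 1 day (0% of all called) and at 5 days (0.0229% of all), with 0 members at an unadjusted p under 0.05 in both. The difference for Ces2a at 5 days, 9A1 response minus 14B3 response, was -2.80 ± 1.96, and 0.06 ± 0.64 without basal 9A1 replicate 1.

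**Figure D2:**
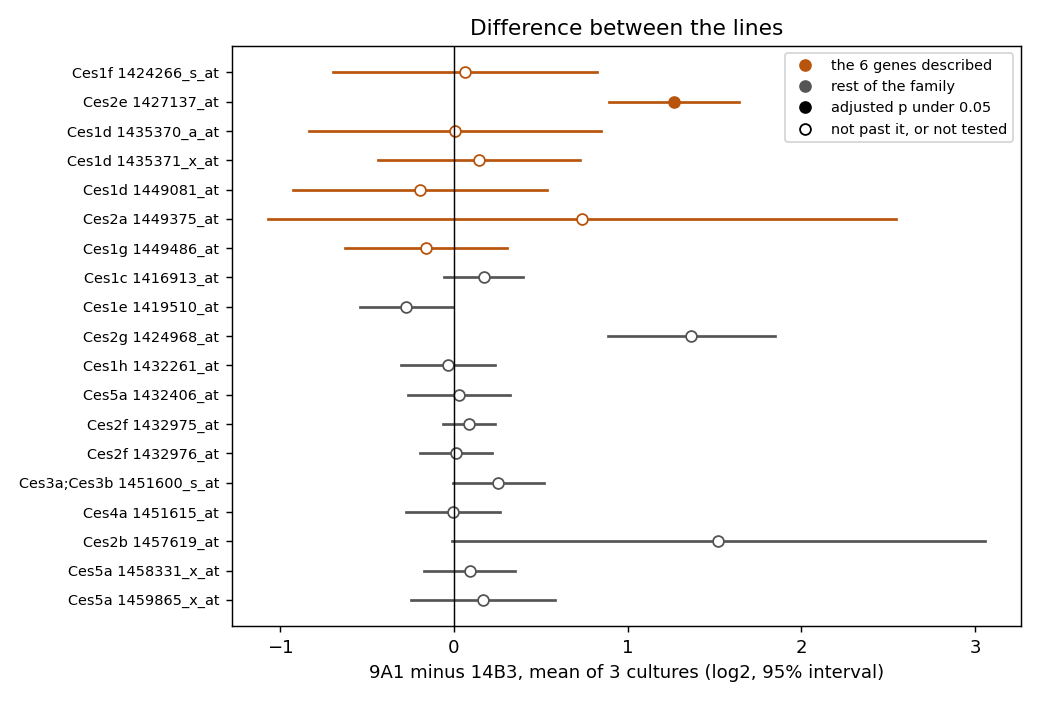
Difference between the lines (9A1 minus 14B3, log2, mean of the 3 cultures) for every carboxylesterase probe set, with 95% intervals; filled points passed adjusted p under 0.05 in limma. Ces2e at 1.27 was the filled point, with Ces2g close to it at 1.37, while the intervals of the Ces1 members span 0.

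The rest of the family was measured by 12 probe sets for 10 of 14 further genes, and 9 were tested. At 5 days 3 were higher than in basal culture (13.7% of all probe sets) and 1 was lower (15.4%). Among the 3, Ces1e passed the filter through 5 day arrays alone. At 1 day 0 were called, with 0 at an unadjusted p under 0.05. Ces2b, the gene next to Ces2a in the order of the cluster, was also low in 3 of 4 basal arrays and high at 5 days. On 1457619_at it read 12.67 and 12.82 in 9A1 and 12.55 and 12.50 in 14B3 at 5 days, against 11.59 and 6.71 in basal 9A1 and 5.63 and 5.99 in basal 14B3. At 1 day it read 7.94 and 8.42 in 9A1 and 7.69 and 6.68 in 14B3. It rose by 5.16 ± 0.83 at 5 days (limma adjusted p = 0.00168), and by 6.37 ± 0.25 without basal 9A1 replicate 1, the array on which both Ces2a and Ces2b were high. Without that array it also passed at 1 day, by 1.42 ± 0.25.

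Ces2g, a less studied gene of the same cluster, went the other way. On 1424968_at it read 8.82 and 8.48 in 9A1 and 7.59 and 7.36 in 14B3 at 5 days, against 10.21 and 9.61 in basal 9A1 and 8.05 and 8.35 in basal 14B3. It fell by 1.00 ± 0.26 (adjusted p = 0.0181 in limma), and by 0.85 ± 0.27 without basal 9A1 replicate 1. Like Ces2e and Ces2b it had both 9A1 arrays above both 14B3 arrays in every culture. Over all cultures Ces2g was higher in 9A1 by 1.37 ± 0.21, which missed the threshold (limma adjusted p = 0.0576). The smaller rises at 5 days were those of Ces1e, at 0.95 ± 0.15, and of the probe set shared by Ces3a and Ces3b, at 0.73 ± 0.14. Ces1e passed the filter through 5 day arrays alone, so its call carries no further weight. Ces1h, Ces4a and the 3 probe sets of Ces5a differed by 0.08 to 0.31 and were not called. Ces1c, an esterase of mouse plasma, and both Ces2f probe sets stayed under the filter.

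**Figure D3:**
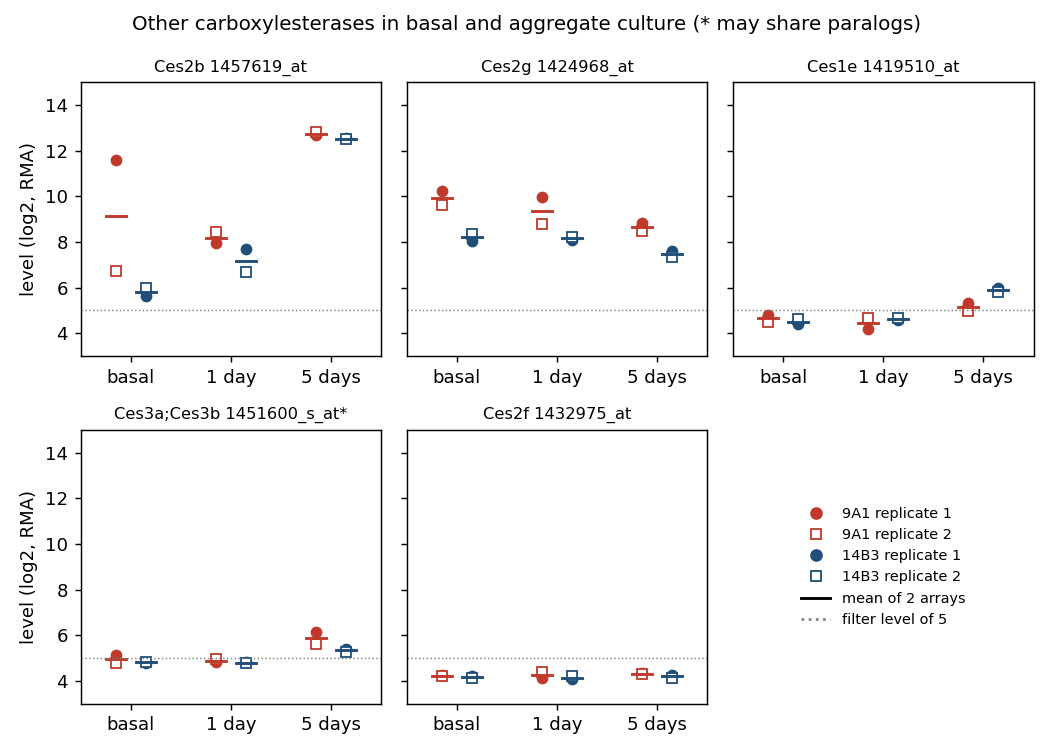
Level (log2, RMA) on every array of 5 further carboxylesterase probe sets, by culture and line, with means of 2 arrays as bars and the filter level of 5 dotted. Ces2b reached 12.5 to 12.8 at 5 days in both lines, Ces2g was lower at 5 days and higher in 9A1, and Ces2f stayed near 4.

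**Figure D4:**
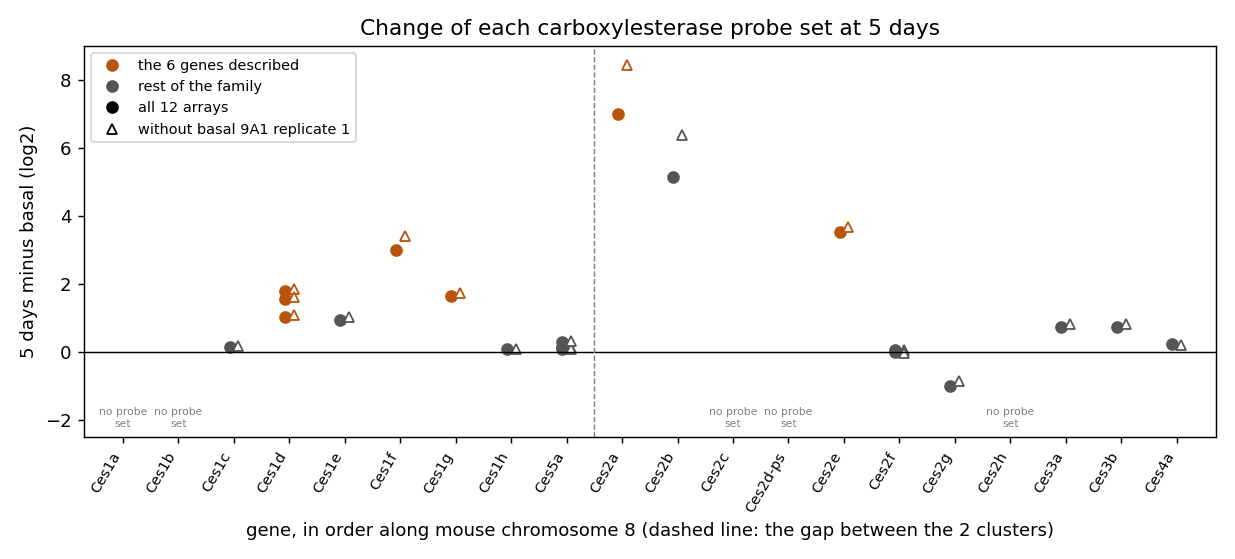
Difference between 5 days and basal culture (log2) for every carboxylesterase probe set, with genes in their order on mouse chromosome 8, with all arrays (filled) and without basal 9A1 replicate 1 (open). Large positive values stand in both clusters beside genes near 0, and the probe set shared by Ces3a and Ces3b is drawn at both genes.

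Patterns over the 12 arrays were compared with those of 28733 probe sets of other genes. The arrays fall into 3 cultures, so any gene with a like step between cultures scores highly, and the correlations carry no test. Nearest to Ces2a were Ugt2b36 (r = 0.998), which encodes a glucuronosyltransferase, Acad11 (0.997), an acyl-CoA dehydrogenase, and Slc22a5 (0.994), the carnitine transporter. Nearest to Ces2e were Aldh16a1 (0.986), Lypla1 (0.985), a thioesterase, and Ptdss2 (0.981), of phosphatidylserine synthesis. For Ces1g they were Lect2 (0.982), a protein secreted by liver, a probe set of Rb1 (0.976) and Dgat1 (0.969), which makes triglyceride. For Ces1f they were the same Rb1 probe set (0.979), Map2k3 (0.976) and Prl6a1 (0.973), and for Ces1d Ccdc186, Ddit3 and Serpind1 (all 0.94). Ces1f and Ces1g correlated at 0.969 with each other, and Ces2a and Ces2e at 0.776.

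Other ester and lipid hydrolases moved in part. This list and the lists of VLDL and regulator genes below were chosen with earlier results of these data known. Their counts and p values describe these arrays and carry no further weight. Of 42 tested probe sets (23 genes) 22 rose at 5 days, from 14 genes, and 1 fell, against 13.7% and 15.4% of all probe sets, with a median of 0.75. Aadac, a deacetylase of the endoplasmic reticulum of hepatocytes, read 13.51 and 13.14 in 9A1 and 11.73 and 10.56 in 14B3 at 5 days, against 9.17 and 5.78 in basal 9A1 and 6.09 and 5.73 in basal 14B3. It rose by 5.54 ± 0.61 (limma adjusted p = 0.000263), and by 6.39 ± 0.28 without basal 9A1 replicate 1. Bche, the plasma cholinesterase made by liver, rose by 3.72 to 4.62 over its 3 probe sets. Faah, which cleaves fatty acid amides, rose by 2.35 ± 0.34 and 1.93 ± 0.32, Cmbl, a hydrolase that activates ester prodrugs, by 1.81 ± 0.27, and Bphl, another prodrug esterase, by 1.40 ± 0.16 on 1 of its 2 tested probe sets. Lipa, the lysosomal lipase, rose by 1.44 to 1.56 at 5 days and by 1.23 to 1.42 at 1 day. Nceh1, which hydrolyses cholesteryl ester, fell by 0.55 ± 0.15 on 1 of its probe sets. The paraoxonases Pon1 and Pon3, Pnpla3, Cel and Lypla2 were not called. Ache, the acetylcholinesterase, differed by 1.22 ± 0.53 (adjusted p = 0.126 in limma), and rose by 1.89 ± 0.34 without basal 9A1 replicate 1. Ephx2, a soluble epoxide hydrolase, differed by 1.81 ± 0.72 (adjusted p = 0.0933 in limma), and rose by 2.69 ± 0.49 without basal 9A1 replicate 1. At 1 day 5 probe sets of this list rose and 2 fell, against 4.19% and 7.34% of all. Without basal 9A1 replicate 1 these counts were 10 and 1, against 7.35% and 10.5% of all.

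Of 13 probe sets for triglyceride storage and VLDL assembly 12 rose at 5 days (8 of 9 genes), against 13.7% of all probe sets, with a median of 2.43. Mttp, which loads lipid onto apolipoprotein B, read 13.48 and 13.55 in 9A1 and 13.14 and 12.76 in 14B3 at 5 days on 1419400_at, against 12.17 and 6.68 in basal 9A1 and 7.04 and 7.06 in basal 14B3. It rose by 4.99 ± 0.93 (limma adjusted p = 0.00347), and by 6.37 ± 0.26 without basal 9A1 replicate 1. Tm6sf2 and Cideb, both involved in adding lipid to VLDL, rose by 5.16 ± 0.97 and 3.29 ± 0.68, or by 6.48 ± 0.48 and 4.26 ± 0.26 without that array. Apob itself rose by 2.13 ± 0.24 and 2.43 ± 0.21, Dgat2 by 1.97 to 2.14, and the droplet coat gene Plin2 by 0.42 ± 0.14. Mogat1 was not called. Mttp was not called at 1 day, when 3 of the 13 probe sets rose, against 4.19% of all. Without basal 9A1 replicate 1 there were 9, against 7.35%, among them Cideb at 1.93 and Tm6sf2 at 2.15.

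Of 18 probe sets of nuclear receptors and other regulators of xenobiotic and lipid genes, 16 rose at 5 days and 0 fell, against 13.7% and 15.4% of all. They covered all 9 genes measured, with a median of 1.51. Ppara, a fatty acid sensor, rose by 2.62 to 3.35 over 3 probe sets, and Nr1i2 (the pregnane X receptor, a drug sensor) by 2.69 to 2.97. The bile acid receptor gene Nr1h4 rose by 2.16 ± 0.37 and Nr1i3, another drug sensor, by 2.03 ± 0.29, while Hnf4a, a liver transcription factor, rose by 0.75 to 1.06. The 2 probe sets of Nfe2l2 differed, at 3.43 ± 0.27 and 0.52 ± 0.13. At 1 day 5 probe sets rose (4.19% of all), among them Nr1i2 on 1451807_at by 1.73 ± 0.44, and 8 without basal 9A1 replicate 1 (7.35% of all). The hepatocyte markers given above moved with all 3 lists, and their part in these rises was not tested.

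**Figure D5:**
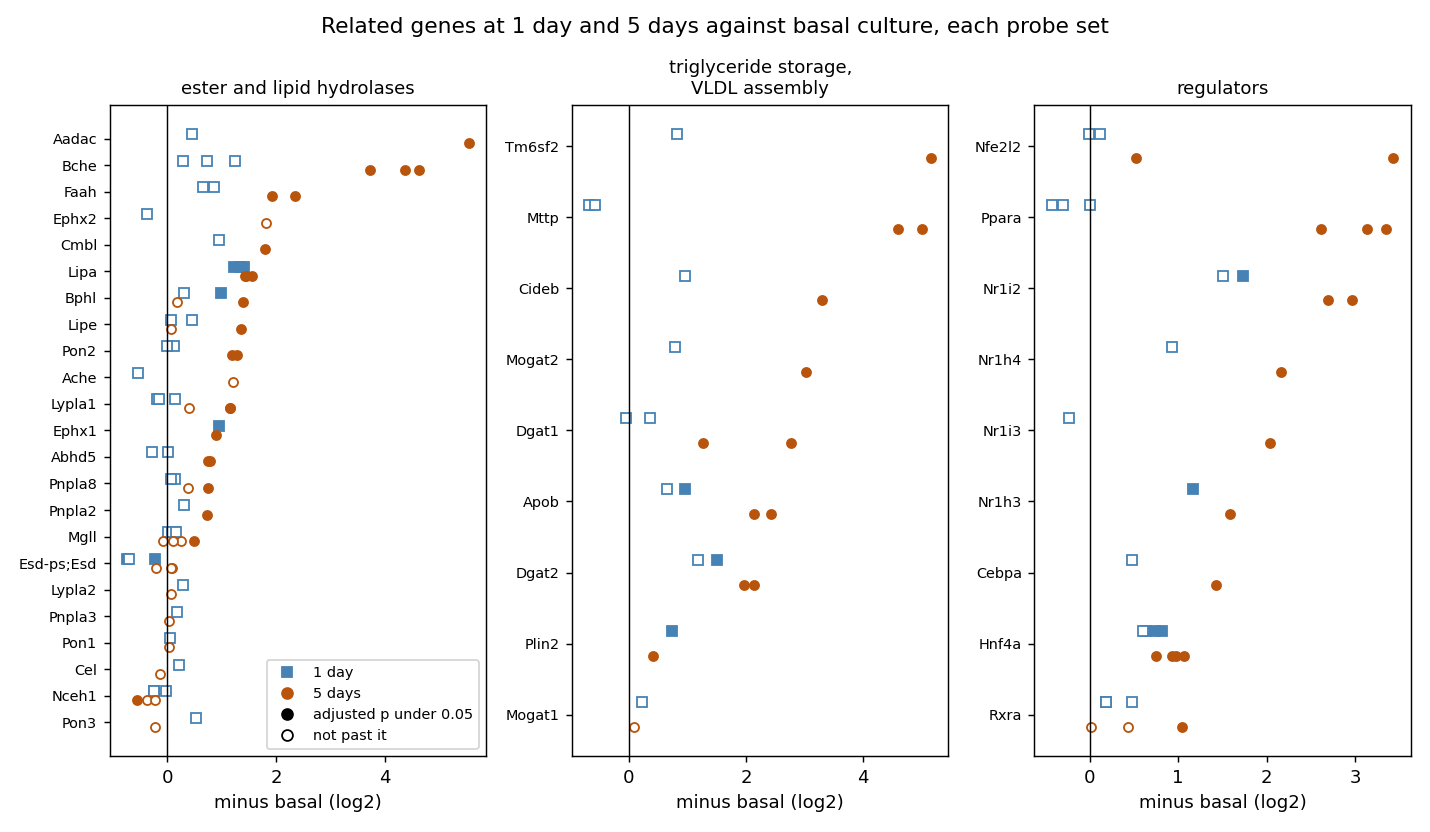
Difference from basal culture (log2) at 1 day (squares) and 5 days (circles) for every tested probe set of 3 related gene lists; filled symbols passed adjusted p under 0.05 in limma. Aadac, Bche, Tm6sf2, Mttp, Ppara and 1 of 2 Nfe2l2 probe sets stand farthest right at 5 days. Their 1 day values are near 0 or below 1.3, and the Nr1i2, Lipa and Dgat2 values were already above 1 at 1 day. All arrays are used. Without basal 9A1 replicate 1 the 1 day values were 2.15 for Tm6sf2, 1.31 for Aadac and 0.84 to 1.77 for Bche. Those of Mttp were then 0.49 and 0.79, and those of Ppara 0.23 to 0.33.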

How the data were processed

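Total RNA of 12 BMEL cultures was hybridised to Affymetrix whole-genome mouse arrays. Per the submitters' processing notes, the deposited log2 levels are RMA summaries that the authors made using R 2.3.1. RMA brings the probes of all arrays to 1 distribution before they are summarised, so changes in total RNA are not seen. The deposited levels still differed between arrays, with medians of 6.09 to 6.24 and SDs of 2.12 to 2.33. Of 45101 probe sets, 64 controls were left out. The platform annotation gave 34945 probe sets 1 gene, 932 several and 9160 none, and 0 columns stayed unmapped. Positions and promoters came from RefSeq (GRCm38).

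With limma 3.58.1 in R 4.3.3 a model with 6 group means was fitted to the 34866 probe sets at 5 or more on at least 2 arrays, with a variance trend and Benjamini-Hochberg adjustment over all (threshold 0.05). Replicates were biological per the labels, and their numbers were not used as pairs. The fit was tested on simulated data. The members and lists were chosen with earlier results of these data known. All probe sets of members and other family genes are named, and in other lists called members, the 3 largest included. Alternatives were other filters, gene level (brightest probe set), quantile and median scaling, array weights, no trend, robust moderation, a replicate block, only the groups compared and leaving out arrays.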

Additional observations from a re-analysis of the deposited data

Results flagged for a closer look

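Among the carboxylesterase probe sets, 5 groups of 4 arrays of 1 culture held an array that lay far from the other 3 relative to the range of the group. Chance alone gives this in about 1 in 20 groups, and 57 groups were looked at. Ces2a on basal 9A1 replicate 1 stood at 11.2, with the other basal arrays at 5.02 to 5.88. Ces2a on day 1 9A1 replicate 1 stood at 8.66, with the other 1 day arrays at 9.97 to 10.2. Ces2a on day 5 14B3 replicate 1 stood at 13.8, with the others at 13.9. Ces1d on 1449081_at stood at 5.29 on day 1 14B3 replicate 2, with the others at 4.46 to 4.53. Ces5a on 1458331_x_at stood at 6.28 on day 1 9A1 replicate 2, the array with the narrowest spread of values, with the others at 5.66 to 5.73.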

How the results depend on the processing

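Of the members' differences between 5 days and basal culture, and the Ces2e difference between the lines, none changed sign under the alternatives. Among differences that were not called, Ces1d on 1449081_at at 1 day was 0.09, and -0.12 without replicate 2 of 14B3 at 1 day, and the Ces2a difference between the lines in the 5 day response changed sign without basal 9A1 replicate 1. For the member probe sets at gene level the median difference was 2.99 against basal culture and 3.47 against 1 day, since fewer features enter. At gene level 13 hydrolases and 9 regulators were called at 5 days, again from fewer features. Of all 15781 features at gene level 5591 were called against basal culture, compared with 10136 of 34866 in the main fit. With a floor of 6, which removes low probe sets, 2 other carboxylesterases were called at 5 days, as were 10298 of all 26283 probe sets. With array weights 4 members were called at 5 days against 1 day, 1 between the lines at 5 days and 0 between the lines over all cultures. Over all 34866 probe sets the weights gave 5518 calls at 5 days against 1 day (6320 without weights). Between the lines they gave 786 at 5 days (69) and 56 over all cultures (58). Leaving out basal 9A1 replicate 1 and day 1 9A1 replicate 2 together also moved some counts. That fit leaves those groups with a single array each, so its counts are not given. Deviations of same-numbered replicates correlated above 0.1 in 5 of 6 pairs of aggregate groups (0.01 to 0.52). With a basal group this held in 0 of 9 pairs (-0.30 to 0.06). The main fit did not use the numbers as pairs, so it leaves out what same-numbered aggregate arrays share. The source of that likeness was not tested. With the replicate block 0 members were called between the lines over all cultures (adjusted p = 0.11 for Ces2e), and it moved no other count of members or of the 4 other lists at 5 days by over 1.5 times. Over all probe sets the block gave 2594 calls at 1 day (4020 without it). Between the lines it gave 29 at 5 days (69), 3 in basal culture (7), 0 at 1 day (2), 0 over all cultures (58) and 1 for the difference in the 5 day response (8).

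With each array left out in turn the members' median at 5 days ranged from 1.37 (without day 5 9A1 replicate 1) to 2.39 (without day 5 9A1 replicate 2) against basal culture, and from 1.61 to 2.47 against 1 day. The count of members called at 5 days ranged from 4 to 7 against basal culture, lowest without replicate 2 of basal 14B3 or replicate 1 of 5 day 14B3. Against 1 day it ranged from 3 to 7, lowest without either 1 day 14B3 array, day 5 9A1 replicate 1 or day 5 14B3 replicate 1. At 1 day the members' median against basal culture ranged from -0.21 to -0.05. Between the lines the count of members called was highest without basal 9A1 replicate 2, in basal culture, over all cultures and for both interactions. That fit leaves basal 9A1 with replicate 1 alone, the array that went against its label. These counts therefore carry no weight for the members. Without replicate 1 of either line at 5 days, 1435370_a_at and 1435371_x_at of Ces1d left the filter and so could not be called. Values under 5 lie at background, which limits the Ces1 differences.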
